A study of Mus musculus with 721 samples.

Results

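Nanog was followed as 1 of the 24483 gene rows of a single-cell RNA-seq table, across mouse embryos from the blastocyst to the start of gastrulation. It was chosen by its measured levels in these embryos, which were known to drop between E4.5 and E5.5 and to come back at E6.5. Its levels are therefore given as a description and without a test, and tests are kept for other genes. The study collected 721 cells of Wild Type C57Bl/6Babr embryos. Counted by label, 99 cells came from 10 embryos at E3.5 and 250 cells from 13 embryos at E6.5. The remaining cells came from 5 embryos at E4.5 and 9 embryos at E5.5, which makes 37 embryo labels in all. No treatment or engineered allele was part of the design, and groups differ by stage and by lineage. Stages also differ by plate, with P8, P9 and P11.P6.P10 at E3.5 and P1 and P2 at E4.5. At E5.5 the plates were P1, P2.P3, P7.P4.P5 and P11.P6.P10. The paper describes Accutase for dissociation at the earlier stages and TrypLE at E6.5. The part of plate and dissociation in the stage differences was not tested. At E6.5, 9 embryos came from plates P1, P2 and P3, and 4 embryos carried no plate name, of which 2 (82 cells) were titled E6.75 and kept with E6.5 as in the stage labels. The labels do not say whether E6.5 embryos 1 and 2 without a plate name are others than embryos 1 and 2 of plate P1. They were counted apart here, and merging them gave a T-negative Nanog level of 67.1 CPM (n = 11) against 76.9 (n = 12). The embryo is the replicate below, and 9 cells at E3.5 without an embryo number were counted as 1 embryo. For the cells it sequenced, the paper gives fewer embryos than were counted here by label. Some labels may thus stand for the same embryo, and the numbers of replicates behind the SD and p values below may be too high. Tests of other genes were not repeated with embryos merged.

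Nanog is a homeodomain transcription factor that works with OCT4 (Pou5f1) and SOX2 in the pluripotency network. In the inner cell mass it marks the cells that will form the epiblast, while GATA6 and SOX17 mark the primitive endoderm (PrE), and FGF4 from the epiblast precursors signals to their neighbours. It is a naive pluripotency gene that is known to be low in the epiblast just after implantation and to be made again in the posterior epiblast, where Nodal, Wnt and FGF signals set up the primitive streak.

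Nanog (ENSMUSG00000012396.12) lies on the plus strand at chr6:122707489-122714633 of GRCm38, the build of the deposited counts, between Dppa3 and Slc2a3 in a cluster of genes expressed in early embryos. Its exons cover 2242 bases in the GENCODE annotation. The 250 bases before its start (chr6:122707239-122707488, plus strand, sequence from RefSeq for GRCm38.p6) are shown because OCT4 and SOX2, the partners whose levels are given below, are known to act on it there. Capitals mark a composite SOX2 and OCT4 motif, CATTGT, then any 1 base, then ATGCAAA, which reads on the minus strand.
Nanog promoter: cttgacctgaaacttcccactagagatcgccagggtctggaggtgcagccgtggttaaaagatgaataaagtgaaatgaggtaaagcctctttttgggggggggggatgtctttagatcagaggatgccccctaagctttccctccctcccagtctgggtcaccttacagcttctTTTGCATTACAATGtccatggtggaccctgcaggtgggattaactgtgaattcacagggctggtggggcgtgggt
The match covers 14 bases from 75 to 62 bases before the start (chr6:122707414-122707427). Among 32851 promoter windows of 27025 genes, searched on both strands over 250 bases before and 50 after the start, 2 windows held it (0.00609%) and both belong to Nanog, while CATTGT alone was in 12.6% and ATGCAAA alone in 4.63%. The motif was looked for with this promoter in mind, and a match is a description of the letters only.

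Cells were placed in classes by clustering without Nanog, T and the listed genes that are no markers, and each cluster was named by endoderm or epiblast markers. At E4.5, 82 cells were PrE-like and 23 epiblast-like. At E5.5 the endoderm-like class held 8 cells and all but 1 of the others were epiblast-like, with 17 to 45 cells in each of 8 embryos. The E6.5 endoderm-like class held 41 cells. E6.5 cells outside the endoderm with T, the primitive streak gene, at 10 CPM or more (CPM, a gene's count scaled by the total of its library) were called T-positive (54 cells), and the epiblast-like cells below that T-negative (90 cells on plates P1 to P3 and 58 in embryos without a plate name). Summed over an embryo, the 28 endoderm markers reached 18364 to 30821 CPM in PrE-like and 24990 to 59688 CPM in E6.5 endoderm-like sums, against 2290 to 4119 CPM in E4.5 and 1285 to 1718 CPM in E5.5 epiblast-like sums. In T-negative sums they ranged from 2168 to 6478 CPM in 11 embryos and reached 17073 CPM in embryo 9 of plate P3, whose values are given with and without it where they matter. The 10 trophoblast markers found in the table summed to 418 to 1939 CPM at E3.5, 1178 to 2457 CPM in E6.5 endoderm-like sums and at most 711 CPM in the epiblast-like classes. Cells held 66896 to 3792936 counts (median 692863), and 8 cells fell in no class. Wells marked as double were kept, and without them each class kept its Nanog level within the SD between embryos.

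Nanog was highest in the inner cell mass, dropped in the epiblast through E4.5 to E5.5, and was high again at E6.5. Each level is a CPM value, after TMM normalization, of the summed counts of 1 class in 1 embryo with at least 3 of its cells (51 sums). At E3.5 the 10 embryos ran from 33.8 through a median of 293 to 730 CPM, with a mean of 312 ± 202.4 (SD, n = 10), or 265.3 without the 9 cells that carry no embryo number. The 5 E4.5 epiblast-like sums held 30.2, 59.3, 90.7, 132.1 and 144.7 CPM, with a mean of 91.4 ± 48.2 (SD, n = 5). The 8 E5.5 epiblast-like sums ran from 4.11 through 10.1 to 20.1 CPM, with a mean of 10.6 ± 4.75 (SD, n = 8). Each of the E4.5 epiblast-like sums lay above every E5.5 sum, and the ratio of their means was 8.65.

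At E6.5 the 12 T-negative sums ran from 3.73 through 65.7 to 233.5 CPM, with a mean of 76.9 ± 58.9 (SD, n = 12). The 4 T-positive sums held 33.7, 67.6, 113.5 and 120.2 CPM, with a mean of 83.8 ± 40.7 (SD, n = 4). Of the 12 T-negative sums, 10 lay above the highest E5.5 sum and 1 below the lowest, and all 4 T-positive sums lay above it. The ratios of means to E5.5 were 7.27 for T-negative and 7.92 for T-positive cells. In the fit over all sums, the log2 difference of Nanog was -1.77 (SE 0.79) from E3.5 to E4.5, -3.11 (SE 0.76) from E4.5 to E5.5 and 2.86 (SE 0.68) from E5.5 to E6.5 T-negative cells. The E4.5 sums enter the first pair of these differences and the E5.5 sums the last pair.

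**Figure D1:**
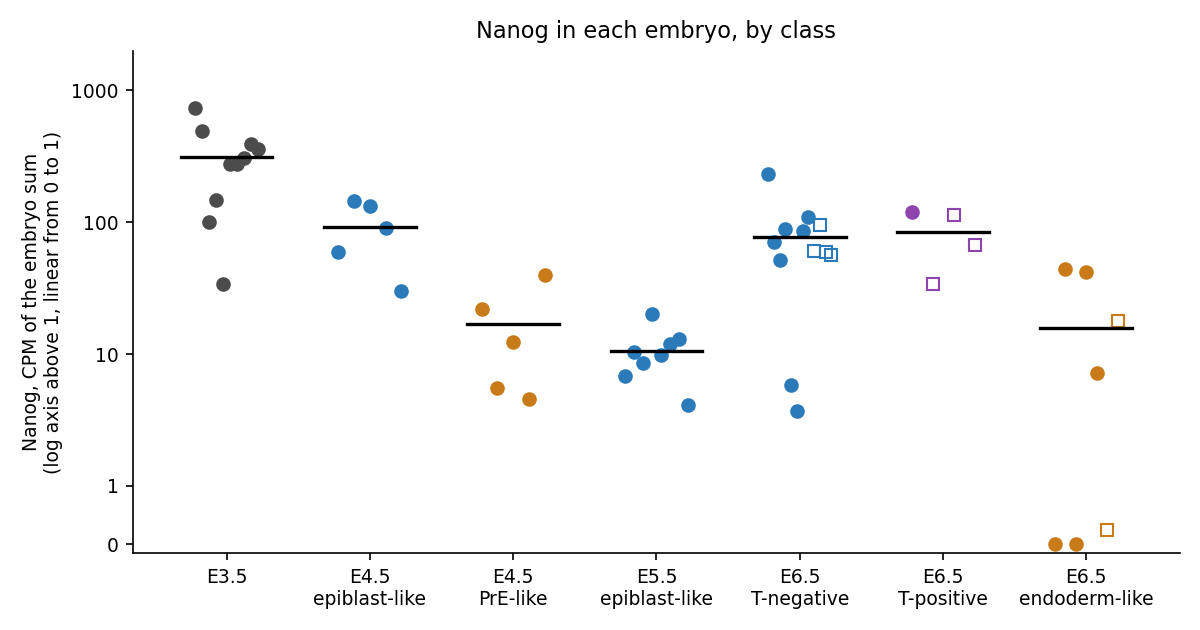
Nanog CPM of each embryo sum (y axis, log above 1) in 7 classes (x axis), with bars at class means, filled circles for embryos with a plate name and open squares for E6.5 embryos without one. The 8 E5.5 sums sit between 4.11 and 20.1, below all 5 E4.5 epiblast-like sums and below 10 of the 12 E6.5 T-negative sums.

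Ordered by mean, the classes ran E3.5, E4.5 epiblast-like, E6.5 T-positive, E6.5 T-negative, E4.5 PrE-like, E6.5 endoderm-like and E5.5 epiblast-like. E3.5 lay 3.41 times above E4.5 epiblast-like cells by the means, with 8 of its 10 embryos above all 5 of the latter. The E4.5 epiblast-like, T-positive and T-negative levels overlapped and their means lay nearer to each other than the SD between embryos. The 3 lowest classes, PrE-like with 16.8 ± 14.7 (SD, n = 5), E6.5 endoderm-like with 15.9 ± 19.6 (SD, n = 7) and E5.5 epiblast-like cells, overlapped as well.

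Per cell, the classes fell into the same high and low groups. The intervals here and below pool the cells of all embryos and leave out the spread between embryos. Over embryos, the share of cells with a count ran from 20 to 62.5% at E5.5 and from 40 to 100% in T-negative cells. The intervals are therefore too narrow to set classes or groups of cells against each other. Nanog had at least 1 count in 93 of 99 E3.5 cells (93.9%, exact 95% interval 87.3 to 97.7%), and the median cell held 344 CPM. It was present in 21 of 23 E4.5 epiblast-like cells (91.3%, 72 to 98.9%), with a median of 93.9 CPM. At E5.5 it was present in 92 epiblast-like cells (35.7% of the class, 29.8 to 41.8%), and the median cell held 0. The share of cells was lower at E5.5, and the 90th percentile over all cells, zeros included, was 40.8 CPM against 178.6 CPM in the E4.5 epiblast. That percentile mixes share and level, and the level among cells with Nanog alone was not computed. A single E5.5 cell reached 199.5 CPM and the next highest 105.7 CPM.

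At E6.5 Nanog was present in 82.4% of T-negative cells (75.3 to 88.2%, all but 26 cells) with a median of 36.1 CPM, and in 53 of 54 T-positive cells (98.1%, 90.1 to 100%) with a median of 40.9 CPM. The highest cells reached 625.5 and 370 CPM, against 1469 CPM at E3.5. In the endoderm classes Nanog was present in 15 of 82 PrE-like cells (18.3%, 10.6 to 28.4%) and 13 of 41 E6.5 endoderm-like cells (31.7%, 18.1 to 48.1%). It was present in 0 of 8 E5.5 endoderm-like cells, which allows a share of up to 37.5% taking 3 cells as the floor (exact upper limit 36.9%). Among the 15 PrE-like cells, 4 were epiblast-like under a second clustering, and 11 of the other 78 PrE-like cells had a count. At 10 CPM or more the share was 22.1% at E5.5, 24.4% in E6.5 endoderm-like and 12.2% in PrE-like cells, at median depths of 784802, 847050 and 754873 counts. The E5.5 share thus lay below that of the E6.5 endoderm at 10 CPM (interval 12.4 to 40.3%), above it for 1 count or more, and above that of the PrE at both, so that no order is read between E5.5 and the E6.5 endoderm. The shares of E3.5 (89.9%), E4.5 epiblast-like (73.9%), T-negative (73%) and T-positive cells (94.4%) lay above all of these. With every cell thinned to 200000 counts, which left out 13 shallower cells, the shares with a count were 93.9% at E3.5, 82.6% in E4.5 epiblast-like, 13.6% in PrE-like, 29.2% at E5.5, 78.5% in T-negative, 100% in T-positive and 25% in E6.5 endoderm-like cells. Thinning kept the 4 high classes above the 3 low ones.

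**Figure D2:**
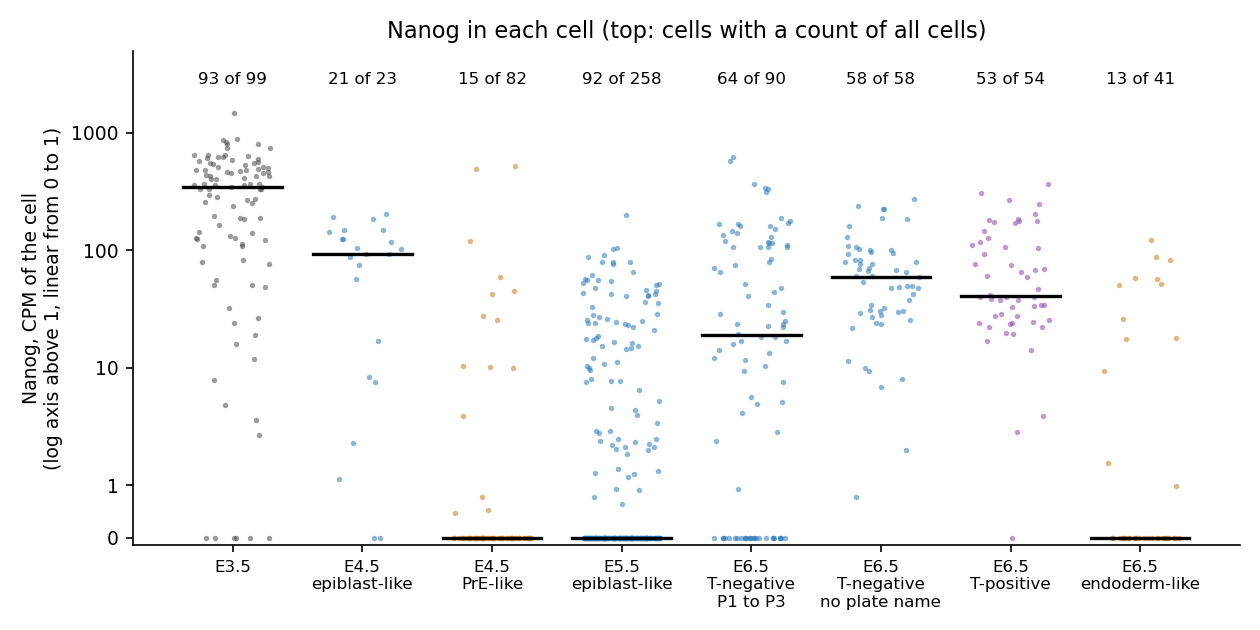
Nanog CPM of each cell (y axis, log above 1) by class (x axis), with E6.5 T-negative cells split by plates P1 to P3 and no plate name, bars at medians and the number of cells with a count above. The median lies at 0 for E5.5 epiblast-like, PrE-like and endoderm-like cells and between 36.1 and 344 CPM for whole E3.5, E4.5 epiblast-like, T-negative and T-positive classes.

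In the inner cell mass at E3.5, cells with Nanog were not all alike, and cells with the endoderm factor gene Sox17 held less of it by the median. Cells with Sox17 at 10 CPM or more held a median of 108.5 CPM of Nanog (27 cells) and cells without it 421 CPM (72 cells), and Nanog itself reached 10 CPM in 19 (70.4%) and 70 (97.2%) of them. The median was lower in the Sox17 cells of 6 of the 8 embryos that held both kinds. Some of these embryos held few Sox17 cells. In embryo 5 of plate P8 the values were 282.4 CPM (1 cell) and 283.7 CPM (2 cells). For Gata4, another endoderm factor, the medians were 49 CPM with it (19 cells) and 388 CPM without it (80 cells). Gata6, which comes on earlier, was at 10 CPM in 87 of the 99 cells, and 77 of these also held Nanog at that level. Fgf4, the ligand made by epiblast precursors, went the other way, with 454 CPM of Nanog in the 50 cells with it and 125.8 CPM in the 49 cells without it. All 50 cells with Fgf4 held Nanog at 10 CPM or more. Sox17, Gata4 and Fgf4 also stand at the ends of the ranking by correlation given further on. These splits describe the same cells again and are no separate result.

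In E4.5 embryos Nanog was kept in the epiblast and nearly absent from the PrE, apart from a few cells. In embryos 1 to 5 it stood at 59.3, 144.7, 132.1, 90.7 and 30.2 CPM in epiblast-like sums and at 21.8, 5.56, 12.3, 4.57 and 40.02 CPM in PrE-like sums of the same embryos. The epiblast was higher in 4 of the 5 and the PrE in embryo 5, and without embryo 5 the PrE-like mean was 11.1 CPM. Only 15 PrE-like cells had a count of Nanog. Of these, 4 cells carried 956 of the 1142 counts in the class (83.7%), at 520, 489, 59.9 and 9.99 CPM.

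Those 4 cells were epiblast-like under a second clustering (Ward), and 3 of them had no count of Gata6, Sox17, Gata4, Pdgfra or Cubn, all genes of the PrE. The cell with 520 CPM, from embryo 5, held endoderm and epiblast genes together, with 60.7 CPM of Gata6, 93.4 CPM of Gata4, 2271 CPM of Cubn and 1211 CPM of Tdgf1, and its well was marked as single. Tdgf1, a Nodal co-receptor of the epiblast, stood between 1032 and 2786 CPM in the 4 cells. It had a median of 0 in the other 78, of which 14 held 10 CPM or more of it. Some of these also held both kinds of genes. Single-well cells of embryos 1 and 4 with 42.1 and 27.8 CPM of Nanog held 177.8 and 148.3 CPM of Gata6. Their Tdgf1 stood at 640.9 and 593.2 CPM. The paper describes a few E4.5 cells with markers of both lineages and left them out of later steps. Whether they are among these cells was not tested. With the Ward classes the PrE-like mean was 4.47 CPM. The Nanog level of the PrE-like class thus rests on the 4 cells that were epiblast-like under Ward, whose markers go against its name in 3 of 4 cases.

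**Figure D3:**
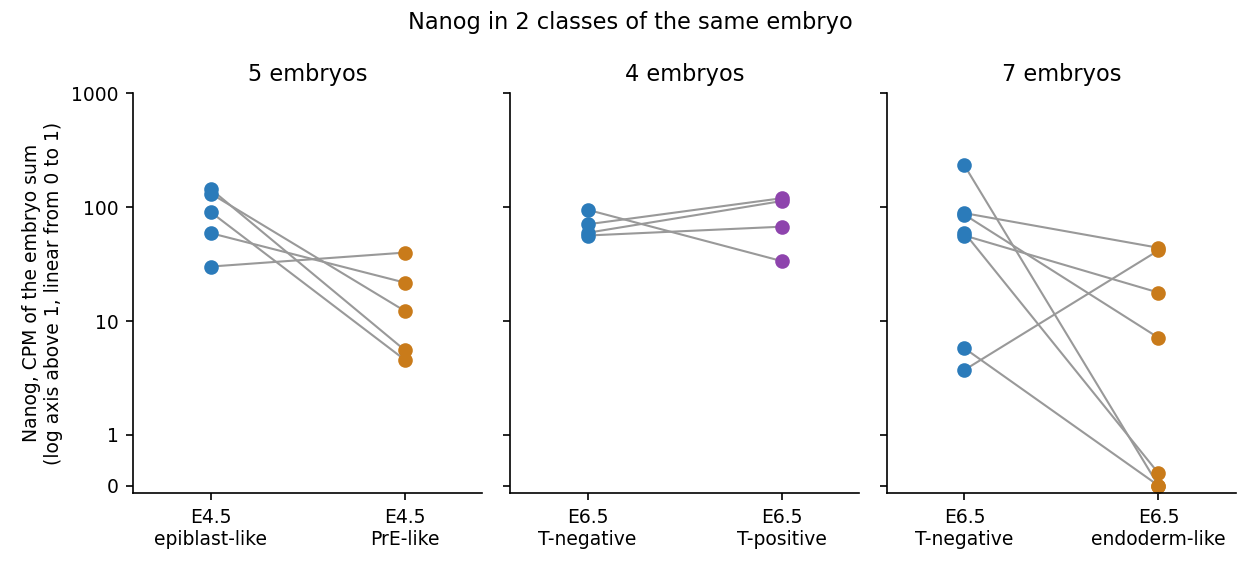
Nanog CPM of embryo sums (y axis, log above 1) in pairs of classes of the same embryo, joined by lines. Epiblast-like sums were above PrE-like sums in 4 of 5 embryos, T-positive above T-negative in 3 of 4, and T-negative above endoderm-like in 6 of 7.

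In the E5.5 epiblast, Nanog was low in each embryo, and a minority of its cells reached 10 CPM. The share of cells with a count ran from 20% to 62.5% over the 8 embryos with at least 3 cells, and 2087 counts of Nanog were found in all. Cells with Fgf5, a marker of the post-implantation epiblast, at 10 CPM or more held Nanog at that level in 41 cases (22.4%), and cells without it in 16 of 75 (21.3%). For Eomes, a T-box gene of the later streak, the shares were 22.6% of 53 cells with it and 21.95% of those without it. These shares pool the cells of all embryos and are a description only.

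The return at E6.5 was uneven between embryos. Sums of embryo 6 of plate P2 (5 cells) and embryo 7 of plate P3 (9 cells) stayed at 5.78 and 3.73 CPM, from 29 and 23 counts, within or just below the range at E5.5. Embryo 2 of plate P1 was highest at 233.5 CPM, from 3 cells of which 1 held 625.5 CPM. The other 9 sums lay between 51.85 and 109.5 CPM. The pair of low embryos also had the lowest Eomes of the 12 (54.05 and 43.4 CPM, others 62.3 to 160.4 CPM), while Mixl1, a homeobox gene of the streak, stood at 0 and 3.73 CPM (also at 0 in embryo 2 of plate P1) and follistatin (Fst) at 0.598 and 3.89 CPM. Fgf8 did not follow over embryos, at 66.01 and 8.91 CPM in these and at 12.3 CPM in embryo 1 without plate name, where Nanog stood at 60.5 CPM. Embryo 9 of plate P3, with 109.5 CPM of Nanog and the raised endoderm markers, had 0.786 CPM of Mixl1, 12.8 CPM of Fgf8 and 1.18 CPM of Fst, and the T-negative mean without it was 74.99 CPM.

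Plates and embryos without a plate name gave like levels and unlike shares. The mean was 81.3 ± 72.4 CPM (SD, n = 8) on plates P1 to P3 and 68 ± 18.2 CPM (SD, n = 4) in embryos without a plate name. Nanog had a count in 64 of 90 T-negative cells (71.1%) of the former and in 58 of 58 (100%) of the latter, and reached 10 CPM in 61.1% and 91.4%. The cells of the former were deeper (median 732788 against 496326 counts) but had fewer genes detected (5817 against 8046), and thinning to equal counts left 67.8% against 96.3%. In endoderm-like cells the shares at 10 CPM were 27.6% and 16.7%. Embryos without a plate name include those titled E6.75, so the age, the embryo and the library cannot be told apart here.

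**Figure D4:**
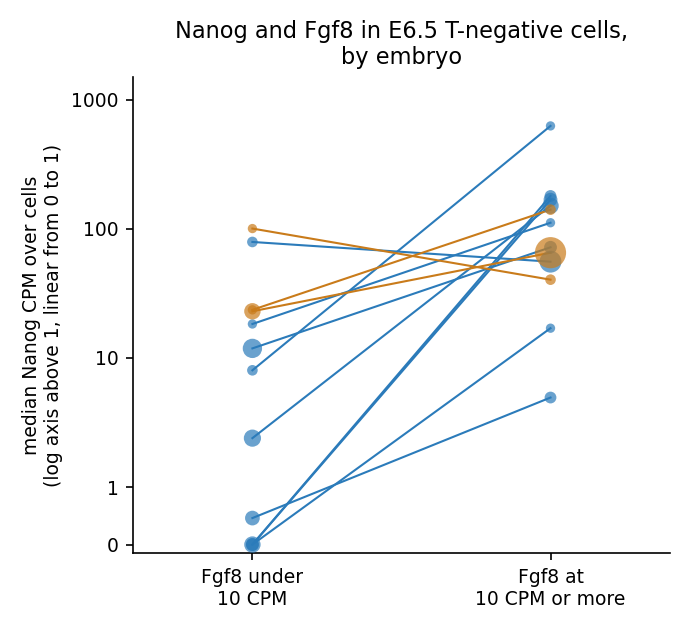
Median Nanog CPM over cells (y axis, log above 1) of E6.5 T-negative cells with Fgf8 under 10 CPM and at 10 CPM or more (x axis), with a line for each of 12 embryos, blue for plates P1 to P3 and orange for no plate name, and point areas that grow with the number of cells. The line rises in 10 embryos and falls in 2.

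Among T-negative cells at E6.5, Nanog went with Fgf8, an FGF ligand of the streak and posterior epiblast. Fgf8 itself stood at 62.1 ± 43.7 CPM in T-negative and at 101.8 ± 97.7 CPM in E6.5 endoderm-like sums. Fgf8 also ranked first of 7746 genes by correlation with Nanog in this class, as given further on. The split by Fgf8, and its wider gap than those of other genes, describe the same cells again and are no separate result. Cells with Fgf8 at 10 CPM or more held Nanog at that level in 83 of 90 cases (92.2%, exact 95% interval 84.6 to 96.8%), with a median of 72.9 CPM. Cells without Fgf8 held it in 25 of 58 cases (43.1%, 30.2 to 56.8%), with a median of 4.26 CPM. In the 12 embryos with both kinds, the median was higher in the Fgf8 cells of 10, and lower in those of embryo 3 of plate P1 and of embryo 1 without plate name. The Fgf8 cells were the shallower ones, with a median of 507316 against 875841 counts, and the part of depth in the difference was not tested beyond the thinned values given further on. The gap in shares between cells with and without the gene was smaller for other genes looked at, with 86.96% against 66.7% for Wnt3, a streak ligand, 82.8% against 66.7% for Mixl1 and 76.7% against 59.4% for Eomes, whose medians were higher in the cells with it in 5 of 9 embryos. It was 75% against 72.8% for Evx1, 78.6% against 71.7% for Foxa2 and, the other way, 68.1% against 75.25% for Cer1, genes of the streak or the endoderm. For Sox2 the shares were 73.9% with it and 69.7% without it.

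T-positive and T-negative cells overlapped in their Nanog levels. In the 4 embryos with enough of both, T-positive and T-negative sums stood at 120.2 and 70.9 CPM in embryo 3 of plate P1, at 113.5 and 59.75 CPM and at 67.6 and 56.55 CPM in embryos 1 and 2 titled E6.75, and at 33.7 and 95.2 CPM in embryo 2 without plate name. T-positive cells were higher in 3 of 4, and the log2 difference over all sums was 0.13 (SE 0.76). Embryo 2 without plate name gave 23 of the 54 T-positive cells and also 23 of the 30 T-positive cells with Mesp1, the gene of nascent mesoderm, at 10 CPM or more. Its T-positive cells had a median of 28.6 CPM of Nanog. Over all T-positive cells the median was 33.7 CPM with Mesp1 and 85.3 CPM without it, but in the 3 embryos with both kinds it was higher with Mesp1 in 2 and lower in 1, so that Mesp1 and that embryo cannot be told apart.

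In E6.5 endoderm Nanog was low and scattered. The 7 sums ran from 0 in 2 embryos through a median of 7.15 to 44.1 CPM, and the T-negative cells of the same embryo were higher in 6 of 7. The exception was embryo 7 of plate P3, with 41.8 CPM in 3 endoderm-like cells and 3.73 CPM in 9 T-negative cells. All 8 E5.5 endoderm-like cells had 0 counts of Nanog.

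Set beside its partners per kilobase of exon, Nanog spanned a wider range over the stages than Pou5f1. Its level was 139.1 ± 90.3 CPM per kb at E3.5, 40.8 ± 21.5 in the E4.5 and 4.72 ± 2.12 in the E5.5 epiblast, and 34.3 ± 26.3 in E6.5 T-negative cells (SD over embryos, n = 10, 5, 8 and 12). Pou5f1 stood at 810, 703, 721 and 296 CPM per kb over the same steps and Sox2 at 55.99, 64.7, 16.3 and 30.96. Among 29 core and naive pluripotency genes ranked by CPM per kb, Nanog was number 10 at E3.5, 19 in the E4.5 epiblast, 16 at E5.5, and 9 in both T-negative and T-positive cells. Zfp42 (Rex1), a naive marker, had means of 175.7, 50.7, 17.7 and 2.02 CPM per kb, and Klf4, a naive transcription factor, of 50.9, 10.8, 1.51 and 1.34. Neither was higher at E6.5 than at E5.5 by its mean.

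**Figure D5:**
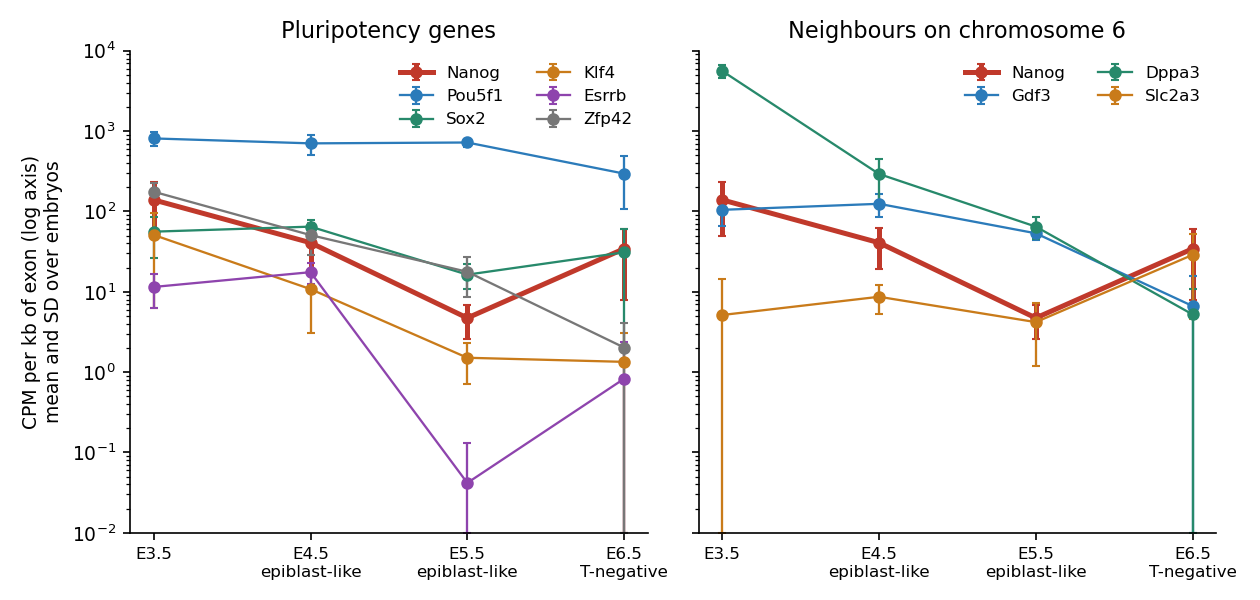
Mean CPM per kb of exon (log y axis, SD over embryos as bars, cut at the axis where the SD exceeds the mean) along E3.5, E4.5 epiblast-like, E5.5 epiblast-like and E6.5 T-negative sums (x axis), for Nanog with pluripotency genes at left and its neighbours on chromosome 6 at right. Nanog runs 139.1, 40.8, 4.72 and 34.3, while Pou5f1 ends at 296 and Dppa3 at 5.22.

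The other genes of the network were tested between stages with edgeR's quasi-likelihood test, at an adjusted p of at most 0.05 over 14042 genes and a log2 fold change past 1, and lists are counted without the genes that named clusters. From E3.5 to the E4.5 epiblast, 12.8% of all genes tested rose and 8.70% fell. Of 18 naive genes 3 rose and 5 fell (median log2 difference -1.98, against 0.0 over all genes), among them Prdm14, a naive and germline regulator, which fell from 38.2 ± 31.8 to 0.538 ± 1.2 CPM (log2 difference -6.09, edgeR adjusted p = 0.0124). Of 9 formative genes 7 rose and 1 fell (median 4.15). Lef1, a Wnt effector, rose from 0 to 95.8 ± 42.6 CPM, at least 1785-fold, and Cdh2, N-cadherin, fell from 13.5 ± 9.26 CPM to 0, at least 68.8-fold. Of 15 Nodal pathway genes 4 rose and none fell (median 0), with Nodal from 0 to 3.43 ± 2.36 CPM, at least 82-fold. Of 16 streak genes 2 rose and 2 fell (median -0.709). T rose on 9 counts in 1 of 5 embryos, and Evx1 on 87 counts, above all E3.5 sums in 3 of 5 embryos. Gsc and Cdx2 fell. Cdx2 stood at 16.9 ± 37.6 CPM at E3.5, and 0 E4.5 sums lay below all E3.5 sums.

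From the E4.5 to the E5.5 epiblast, where Nanog was lower, 3.10% of genes rose and 2.73% fell, and 12 naive genes fell. Of the 18 naive genes none rose and 12 fell (median -5.01, against 0.181 over all genes, or 0.073 with DESeq2's size factors), namely Klf2, Klf5, Esrrb, Tfcp2l1, Tbx3, Prdm14, Dppa5a, Fbxo15, Nr5a2, Tcl1, Tet2 and Morc1. The call of Prdm14 rests on 8 counts in 1 E4.5 embryo. Esrrb, an orphan nuclear receptor and a reported regulator and partner of NANOG, fell from 66.4 to 152.6 CPM in the 5 E4.5 sums to at most 1.56 CPM in the 8 E5.5 sums, with a log2 difference of -8.55 (SE 1.55, edgeR adjusted p = 0.000192). Klf4 and Zfp42 went from 32.9 ± 23.6 to 4.6 ± 2.45 and from 95.4 ± 41.3 to 33.3 ± 17.1 CPM and did not pass. Of 9 formative genes 2 rose (Dnmt3a and Cdh2) and none fell (median -1.21). Nodal, the ligand, rose from 3.43 ± 2.36 to 52 ± 22.9 CPM (log2 difference 3.89, edgeR adjusted p = 0.024), the only one of 15 genes of its pathway (median 1.21), while its receptor partner Tdgf1 stood at 1080 ± 142.2 and 540 ± 134.5 CPM and the effector Foxh1 at 78 ± 31.1 and 107.1 ± 33.4 CPM. Of 16 streak genes Fgf8 rose, from 0 and by at least 48.6-fold, and Eomes and Evx1 fell (median 2.34). The fall of Evx1 rests on its 87 counts at E4.5.

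From E5.5 to E6.5 T-negative cells, where Nanog was high again, 4.53% of genes rose and 4.65% fell, and 15 of 18 naive genes did not rise. Of the 18 naive genes 3 rose and 8 fell (median -1.75, against 0.013 over all genes). Those that rose were Esrrb, Tbx3 and Prdm14. Esrrb stood at 4.99 ± 9.14 CPM (n = 12) from 0.252 ± 0.538 CPM (log2 difference 4.16, SE 1.21, edgeR adjusted p = 0.0166), with a count in 9.46% of the T-negative cells. Prdm14 rests on 37 counts of 1 embryo, and without plates P1 to P3 it did not rise (log2 difference -0.58). Esrrb missed the threshold in embryos without a plate name and in single wells. Zfp42 fell from 33.3 ± 17.1 to 3.8 ± 3.98 CPM (log2 difference -3.11, edgeR adjusted p = 0.000327), and Dppa2, Dppa3, Dppa4, Dppa5a, Nr5a2, Tcl1 and Morc1 fell too. Over all genes, 282 passed with embryos without a plate name alone (50% of them higher), and 783 rose and 937 fell with plates P1 to P3 alone.

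Of 16 streak genes 6 rose in the same T-negative cells, none fell and 10 did not pass (median 2.79). Over all genes 4.53% rose and 4.65% fell. The summed endoderm markers given above were also higher in these sums (2168 CPM or more) than at E5.5 (1718 CPM or less). Gata6 stood at 0.268 ± 0.715 CPM at E5.5 and 2.8 ± 6.37 CPM in T-negative sums. In endoderm-like sums the means were 219.3 CPM for Eomes, 101.8 CPM for Fgf8 and 340.3 CPM for Mixl1. The part of endoderm RNA in these streak genes was not tested. Eomes, needed for the streak and definitive endoderm, rose from 10.6 ± 6.17 to 96.7 ± 35.9 CPM (log2 difference 3.2, SE 0.4, edgeR adjusted p = 1.58e-07), with all 12 sums above all 8 at E5.5. Mixl1 rose from 0.253 ± 0.208 to 27.4 ± 29.1 CPM (edgeR adjusted p = 2.82e-05), and Wnt3, Fgf8, Evx1 and Lhx1 rose as well. T-negative cells were selected for low T, and T stood at 0.13 ± 0.203 and 0.136 ± 0.215 CPM. Of 15 Nodal pathway genes Cer1, a secreted Nodal antagonist, rose and none fell (median -0.272), and Nodal itself stood at 17.4 ± 11.6 CPM after 52 ± 22.9 CPM, short of the threshold (edgeR adjusted p = 0.158). Of 9 formative genes Zic2 and Cdh2 rose and Dnmt3a, a DNA methyltransferase, fell (median -0.583). Among genes that named clusters, Pou5f1 stood at 1621 ± 178.6 and 665 ± 425 CPM, Otx2 at 143.4 ± 35.1 and 332 ± 120.3 CPM and Fgf5 at 58.2 ± 9.3 and 166.4 ± 50.2 CPM.

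Between T-positive and T-negative cells, 0.0641% of genes were higher (9 genes) and 0 lower, of which T itself was used to part the cells. The other 8 were Fgf3, Dll1, Eri3, Slc30a2, Lzts1, Layn, Epn3 and Nrg2. DESeq2 gave 15 higher and 19 lower, and 1 gene remained with the embryo as a replicate block. In edgeR, 705 of 14042 genes had an unadjusted p under 0.05, about the share that this cut passes by chance. No member of any list passed besides T, including Esrrb at 0.353 ± 0.706 CPM (n = 4) and Nodal at 40.6 ± 22.4 CPM in T-positive cells. The medians were -1.16 over the naive, 1.87 over 15 streak, 0.0544 over Nodal pathway and -0.0357 over formative genes, against -0.041 over all genes.

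Genes reported to act on Nanog are counted beside the shares over all genes of each contrast. Of 16 regulators, 1 rose and 2 fell from E3.5 to E4.5 (median 0.159, 12.8% and 8.70% over all genes), 1 rose and 1 fell from E4.5 to E5.5 (median 0.0596, 3.10% and 2.73%), and 2 rose and 1 fell from E5.5 to E6.5 (median 0.206, 4.53% and 4.65%), with none between T-positive and T-negative cells (median -0.0992). Stat3, the effector of LIF, fell first, from 146.4 ± 51.6 to 21.9 ± 20.6 CPM (edgeR adjusted p = 0.00516). Nr6a1 (GCNF), a nuclear receptor reported to repress Nanog, rose from 20.8 ± 21 to 78.4 ± 32.8 CPM from E4.5 to E5.5 (edgeR adjusted p = 0.015) and from there to 171.3 ± 64.9 CPM at E6.5 (edgeR adjusted p = 0.0474). Mbd3, of the NuRD complex, fell to 121.8 ± 46.1 CPM at E6.5 (log2 difference -1.12, edgeR adjusted p = 0.00145). Tcf7l1 (TCF3), also reported to repress Nanog, stood at 22.5, 61.6, 48.8 and 49.1 CPM over the 4 stages and passed in no contrast.

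Of 10 protein partners, Zfp281 and Rif1 rose from E3.5 to E4.5 (median 0.78, 12.8% of all genes rose). Tet2, Esrrb and Rif1 fell from E4.5 to E5.5 (median -0.747, 2.73% of all genes fell). Esrrb rose at E6.5 (median 0.284, 4.53% of all genes rose). No partner passed between T-positive and T-negative cells (median -0.218). Tet2, a 5-methylcytosine oxidase, fell from 58.7 ± 31.8 to 1.38 ± 1.15 CPM (edgeR adjusted p = 0.000222). Of 3 core pluripotency genes that named no cluster, Lin28a rose from E3.5 to E4.5, from 11.9 ± 11 to 176.7 ± 52.1 CPM (edgeR adjusted p = 1.62e-08; medians 0.635, -0.415, 0.00704 and -0.0552 over the 4 contrasts), and none passed later. Of 2 FGF receptor genes on the list of PrE genes none passed in any contrast (medians -1.38, -0.26, 0.271 and -0.117).

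The neighbours of Nanog on chromosome 6 had other levels across the classes. Of 8 genes on the list 5 were tested, 1 of which (Gdf3) named clusters. Of the other 4, Dppa3 fell from E3.5 to E4.5 (median -2.32, 8.70% of all genes fell) and none passed to E5.5 (median -1.25). To E6.5 Slc2a3 rose and Dppa3 fell (median 0.383, 4.53% and 4.65% over all genes). None passed between T-positive and T-negative cells (median 0.114). Dppa3 (Stella), a maternal and germline gene, went from 4986 ± 949 through 260.8 ± 143.2 and 57.7 ± 17.7 to 4.66 ± 4.94 CPM. Gdf3, a Nodal-related ligand, stood at 253.6 ± 94.7, 301 ± 92.2, 129.4 ± 24 and 16.1 ± 21.5 CPM. Slc2a3 (GLUT3), a glucose transporter, rose from 6.29 to 54.5 CPM at E5.5 to 73.7 to 737 CPM at E6.5 (mean 208.4 CPM, log2 difference 2.78, edgeR adjusted p = 0.00542), and stood at 489 ± 318 CPM in PrE-like and 1047 ± 684 CPM in E6.5 endoderm-like sums, where Nanog was low.

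The genes that followed Nanog from cell to cell are given for each class. The measure was the correlation of ranks within embryos with at least 5 cells of the class, for 7394 to 8087 genes, as a description over cells that share embryo, plate and depth. At E3.5 (83 cells, 5 embryos) the highest were Fgf4 and the podoplanin gene Pdpn (both 0.44), the ETS factor Spic (0.43), Mpdu1 and Mfsd10 (both 0.42), and the lowest were Sox17 (-0.55), Glipr2 (-0.54) and Gata4 (-0.51), with 98% of genes between -0.29 and 0.30. Gata6 stood at -0.29, Klf4 at 0.25, Sox2 at 0.13, Esrrb at -0.07 and Pou5f1 at 0.01. Counts thinned to equal depth gave 0.41 for Fgf4 and -0.57 for Sox17.

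In the E4.5 epiblast the 16 cells of 3 embryos gave wide values, with 98% of genes between -0.60 and 0.65. Med17 (0.85), Fbxo3 (0.84), Csnk2a2, Klf4 and Tbl3 (0.81 each) were highest and Gm6871 (-0.86), Med7 (-0.85) and Ntpcr (-0.84) lowest. Klf4 was the only pluripotency gene among them. In PrE-like cells (82 cells, 5 embryos) Adrb3 (0.56), the epiblast gene Tdgf1 (0.54), Igfbp2 (0.52), the epiblast gene Gdf3 (0.51) and Zfp459 (0.50) were highest, and B3galnt1, Cachd1 (both -0.49) and Oat (-0.44) lowest. The 4 cells described above as epiblast-like under Ward, with both Nanog and Tdgf1, are part of these PrE-like values.

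At E5.5 (8 embryos) nothing followed Nanog closely. Lman2l led at 0.24, then Ogdhl, Npcd, Rab22a and Pla2g4b at 0.21, and Igf2bp3 (-0.22), Xab2 and Txndc9 (both -0.18) closed the list, with 98% of genes between -0.13 and 0.16. These correlations are too weak in counts this sparse to be read as following Nanog. Pou5f1 stood at 0.04, Nodal at 0.09 and Otx2 at 0.02.

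In E6.5 T-negative cells (9 embryos) Fgf8 led. Fgf8 (0.45), the zinc finger gene Sall3 (0.42), the activin antagonist Fst (0.40), Tdgf1 (0.39) and the neurofilament gene Nefl (0.38) were highest, and Phtf2 (-0.31), Gm10020 and Ubxn11 (both -0.29) lowest, with 98% of genes between -0.20 and 0.23. Nanog CPM itself went down with depth within embryos (-0.29), and with thinned counts Fgf8 stood at 0.42, Fst and Tdgf1 at 0.39, Nefl at 0.30 and Sall3 at 0.29. On plates P1 to P3 (85 cells) and in embryos without a plate name (52 cells) Fgf8 gave 0.44 and 0.47, Fst 0.33 and 0.50, and Tdgf1 0.43 and 0.33. Eomes, at 0.25 over all and number 47 in rank, gave 0.12 and 0.46, and Mixl1 stood at 0.13. Sox2 (-0.04) and Pou5f1 (0.10), the partners of NANOG, did not rank with Nanog.

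In T-positive cells (52 cells, 4 embryos) Eomes led at 0.55, followed by Zfp292, the p21 gene Cdkn1a, Decr1 and Hmgxb3 at 0.48, and Psmc5 (-0.50), Gata4 (-0.49) and 2810474O19Rik (-0.48) were lowest, with 98% of genes between -0.35 and 0.34. Sox2 stood at -0.35, T at 0.26 and Mesp1 at 0.11. In endoderm-like cells (18 cells, 3 embryos) 1500009L16Rik (0.85), Tubgcp4 (0.82), Nid1 (0.78), Mpdz and Ptpn12 (0.77 each) were highest and Mettl6 (-0.76) and Rbm22 (-0.73) among the lowest, with 98% of genes between -0.52 and 0.59. Nanog went down with depth there as well (-0.44), and these few cells allow no reading of single genes.

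Across the 51 sums of all classes, the genes most like Nanog by Spearman's rho were the phosphatase gene Ppm1b (0.76), the splicing factor gene Cdc5l (0.72), Gm10664 (0.68), the amino acid transporter gene Slc1a1 (0.65), Tdgf1 (0.64), AC163993.1 (0.63), Akr1c21 and D16Ertd472e (0.62 each). Sums of 1 embryo enter more than once, so these values describe the pattern over stages only. Ppm1b stood at 163.3 CPM at E3.5, 47.3 in the E4.5 and 39.8 in the E5.5 epiblast, and 57.3 in E6.5 T-negative cells, with smaller ratios between them than Nanog. Sox2 reached 0.56, Esrrb 0.47, Klf4 0.46 and Pou5f1 0.36. Fgf8, the gene that ranked first with Nanog inside the E6.5 T-negative class, stood at -0.21 over the sums.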

How the data were processed

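Single cells of mouse embryos had been sequenced as full-length cDNA. The authors trimmed the reads with Trim Galore (version 0.4.3 in the submitters' processing notes), aligned them with HISAT2 (2.0.5 in those notes) to GRCm38, kept well-mapped primary alignments and counted them on genes in SeqMonk, and the deposited table holds these counts as they were, not normalized. They removed cells of low gene number, trophoblast, and wells that held more than a pair of cells. Nanog pseudogenes have no row of their own in the genes analysed here, so that reads from them cannot be told from Nanog where they align to it. 24483 rows were analysed and 23471 matched the GENCODE annotation of GRCm38. Each cell is a library of its own, so no barcodes are shared, and reads carry no molecular identifiers. The intervals on shares are exact binomial intervals over pooled cells and cover the sampling of cells only.

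The gene, the lists and the alternatives were chosen with earlier results of these data known, and so was the promoter motif. Stage, embryo, plate and well type came from the labels. Clusters were found with code that follows the SC3 method (8 clusters over all cells, 5 over E6.5 cells) without Nanog and the list genes that are no markers, and a cluster took the name of the set of 28 endoderm or 16 epiblast markers with the higher mean log2 level. After the clusters were seen, it was added that the set must lie above 0, and epiblast markers below 0 for endoderm, and clusters that failed stayed unnamed. No doublet caller was run, and wells marked double were kept. For each embryo and class with 3 cells or more, counts were added up (1165967 to 49484352 counts per sum) and the sums fitted together with edgeR 4.0.16 in R 4.3.3 (TMM, filterByExpr, quasi-likelihood test, Benjamini-Hochberg adjustment). Folds against groups without counts are limits from 3 counts over the group. T-positive and T-negative sums of the same embryo were paired by that embryo in an alternative fit. Genes named are, for each list and contrast, the 3 with the largest change among those that passed, 22 genes fixed by name of which those that bear on Nanog are printed, and the 5 highest and 3 lowest correlations in each class and 8 over sums, of which 1 gene is not reported here. Streak genes, naive genes and T-contrast genes beyond that were named after their values were seen. Each script that fits or ranks many genes was first checked on data with known answers. Alternatives were DESeq2 1.42.0, RLE normalization, no filter, single wells, leaving out embryos, other minimum cell numbers, Ward clustering of 15 components, T-positive at 1 count and thinning to 200000 counts. Other steps ran in Python 3.11.15 with scikit-learn 1.9.0, scipy 1.17.1, pandas 2.3.3 and numpy 2.4.6.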

Additional observations from a re-analysis of the deposited data

Results flagged for a closer look

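Nanog was present in cells that the comparisons left out. At E6.5, 5 cells of embryo 2 without plate name fell in clusters that no marker set named and had T under 10 CPM. They held 810 counts of Nanog among 9897362 counts, or 81.8 CPM, and all 5 had Nanog, at 18.9 to 146.9 CPM. Those levels lie above the 15.9 CPM mean of the endoderm-like sums and within the range of the T-negative sums. No embryo stood apart from its class in the 6 classes of 4 to 10 embryos that were looked at, a rule under which chance marks about 1 class in 20. The T-negative class, with 12 embryos, lay outside this rule and was not judged by it. Its largest gap was 0.54 of its range, the widest of all classes. That gap lay between embryo 2 of plate P1 (233.5 CPM, from 3 cells) and the next sum (109.5 CPM).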

How the results depend on the processing

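Nanog levels kept their order of high and low classes, and 80 of 81 levels under other settings moved by less than the SD between embryos. That limit is wide, since the SD was 14.7 on a mean of 16.8 CPM in the PrE and 19.6 on 15.9 CPM in the E6.5 endoderm. The PrE-like level of 4.47 CPM with Ward classes thus counts as within it, and the count says little about small shifts. The T-positive level went to 129.6 CPM with a minimum of 1 cell per sum, which adds 2 single cells. Leaving out embryos gave 78.1 to 106.7 CPM in the E4.5 epiblast, 11.1 to 19.9 in the PrE and 71.6 to 100.4 in T-positive cells. The E4.5 epiblast stood at 59.9 CPM with a minimum of 5 cells, and the endoderm at 10.5 CPM with a minimum of 1. From E4.5 to E5.5, 818 genes passed, 549 to 660 without 1 of the E4.5 embryos (435 rose, and 268, 276 and 250 without embryos 2, 3 and 4), 716 rose and 464 fell with DESeq2, and without a filter on low counts 40.4% of calls were higher, against 53.2%. From E5.5 to E6.5, 2594 passed without a filter (1237 rose) and 282 with embryos without a plate name alone, against 1289. From E3.5 to E4.5, 3022 passed, and 2444 to 2594 without 1 embryo. Between T-positive and T-negative cells 34 passed with DESeq2 (15 higher, 19 lower), against 9, 1 with the embryo as a replicate block, 5 in single wells and 8 to 16 without 1 T-positive embryo, 16 of them without replicate 3 (embryo 1 titled E6.75), and none were lower there. Of 389 named-gene values 49 lost their call, and Prdm14 turned to -0.58 from E5.5 to E6.5 in embryos without a plate name. The median correlation of the 5 highest genes with Nanog went from 0.81 to 0.47 in the E4.5 epiblast and from 0.78 to 0.41 in the endoderm with ranks over all cells, and to 0.94 in single endoderm wells, while no E4.5 epiblast embryo had enough single wells. Embryo 9 of plate P3 was left out after its markers were seen. Causes were not tested. The T-negative sums of embryos 6 of P2 and 7 of P3 rest on 29 and 23 counts of Nanog, among 4856616 and 7134713 counts in all.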
